A study of Mus musculus with 6 samples.

Results

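Rbpj, the DNA-binding protein at the end of the Notch pathway, was examined with its cofactors and its targets Dtx1 and Nrarp in RNA sequencing counts of sorted mouse CD4 T cells. The 8 genes were Rbpj, its coactivators Maml1, Maml2 and Maml3, its corepressors Spen and Ncor1, and the targets Dtx1 and Nrarp. They were chosen by name for their part in the pathway, out of 47729 genes counted, with earlier results of these data known. All 8 were found in the table and passed the filter on low counts, as did 15780 genes in all.

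When a Notch receptor is cut, its inner part enters the nucleus and binds RBPJ, and a Mastermind-like protein (MAML) joins to form the activating complex. Without that part of the receptor, RBPJ can sit with corepressors such as SPEN and NCOR1 and keep target genes low. DTX1 (Deltex 1) is a ubiquitin ligase and NRARP an ankyrin-repeat protein that dampens the complex; the genes of both are known Notch targets in T cells.

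Spleen cells were sorted into 3 groups of 2 libraries. OFF libraries came from RBPJind mice that had doxycycline (Dox) in their water for 3 weeks and then none for 1 week while the cells matured in the periphery, and ON libraries from RBPJind mice with Dox for 4 weeks. Both were sorted as immature naive cells, CD3+CD4+CD25-CD45RBint. WT libraries held mature naive cells of wild type mice, CD3+CD4+CD25-CD45RBhi. The treatment label of all 6 samples is Dox, with no duration for WT. The series describes the RBPJind cells as recent thymic emigrants, Notch responsive in ON and unresponsive in OFF. Dox induces the RBPJind mice, and the labels give neither the construct, the promoter that drives it nor the cells that carry it. OFF against ON is the comparison within 1 genotype and gate. The 2 groups also differ in the presence of Dox itself, which cannot be told apart from the induction it drives. In ON against WT and OFF against WT the genotype, the maturity and the gate changed together and cannot be told apart. Whether the 2 libraries of a group are separate animals is not stated, and the spread behind each p-value may be technical.

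Between 17025551 and 19319183 counts per library were assigned to genes. All 10 general and CD4 T cell markers (Cd3d, Cd3e, Cd4 and others) had counts in every library, with summed levels of 3621 to 3874 CPM in OFF, 3560 to 4327 in ON and 3368 to 3667 in WT. CPM is the count of a gene relative to the total of its library, with totals scaled by TMM (trimmed mean of M values). Reads that did not align made up 22.1% and 24.3% of the reads in OFF, 14.8% and 9.34% in ON, and 21.8% and 18.8% in WT. In bulk samples fewer cells of a type and less RNA per cell cannot be told apart.

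Rbpj shares most of its coding sequence with a processed pseudogene, Rbpj-ps3, so its counts need to be read with those of that copy. On GRCm38, Rbpj (ENSMUSG00000039191) lies at chr5:53466152-53657362 on the plus strand. Rbpj-ps3 (ENSMUSG00000079575) lies at chr6:46529354-46530794 on the minus strand as 1 exon of 1441 bases. Aligned to the Rbpj-201 transcript of GENCODE M21, it ran without a gap from transcript base 274 to base 1714, the last base of the coding stretch, and across 9 exon junctions. Over those 1441 bases 4 differed, which is 99.7% identity. The substitutions, counted from base 1 of Rbpj-201 with the Rbpj base first, were T583C in exon 5, C1222A and G1225A in exon 9, and A1361C in exon 10, and each pair of codons was synonymous. The windows below are shown because these letters are the places where a read of the shared stretch can be told apart; capitals mark the differing bases and both genes are given 5′ to 3′ on their own strand.
Rbpj window 1: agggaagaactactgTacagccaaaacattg
Rbpj-ps3 window 1: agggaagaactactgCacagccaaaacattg
Rbpj window 2: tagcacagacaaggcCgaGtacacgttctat
Rbpj-ps3 window 2: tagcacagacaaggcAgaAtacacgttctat
Rbpj window 3: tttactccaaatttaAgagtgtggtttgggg
Rbpj-ps3 window 3: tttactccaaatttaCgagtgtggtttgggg

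Window 1 spans an exon junction of Rbpj (chr5:53642183-53642189 and chr5:53645870-53645893) and is unbroken in Rbpj-ps3 (chr6:46530470-46530500). Window 2 lies at chr5:53652672-53652702 and chr6:46529831-46529861, and window 3 at chr5:53653130-53653160 and chr6:46529692-46529722. Of all stretches of 100 bases in Rbpj-ps3, 77.4% also occurred unchanged in an Rbpj transcript, and of those of 50 and 150 bases 89.0% and 66.0%. The labels do not give the read length. Reads with more than 1 alignment, 13.3% to 14.98% of a library, stand in a separate row of the table and not in the gene counts.

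Rbpj was lower in OFF than in ON and close to WT. It was counted at 29.8 and 31.7 CPM in the OFF libraries, 98.2 and 79.6 in ON, and 36.1 and 35.3 in WT. The 3 groups did not overlap, and both ON libraries stood far above the other 4. Whether the Rbpj reads of OFF and ON came from the native gene or the induced Rbpj was not tested. Relative to ON, Rbpj in OFF was lower by 2.89-fold (-1.53 ± 0.14 as log2 fold change with SE; adjusted p = 0.00195) and 2.49-fold higher in ON than in WT (1.32 ± 0.14; adjusted p = 5.35e-04). Between OFF and WT the log2 fold change was -0.22, with a 95% interval from -0.53 to 0.10 (adjusted p = 0.422), so a fall of the size seen against ON lay outside the interval. Here and below a gene is called at an adjusted p under 0.05 from edgeR's quasi-likelihood test, adjusted over all 15780 genes.

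Rbpj-ps3 was also highest in ON, but its lowest group was WT and not OFF. Its counts were 30 and 45 in OFF, 918 and 729 in ON, and 6 and 3 in WT. ON exceeded every other library, and OFF exceeded WT. The pseudogene held 5.49% and 7.87% of the reads assigned to it or to Rbpj in OFF (Wilson 95% intervals 3.88 to 7.74 and 5.93 to 10.4), 32.3% and 31.2% in ON (30.6 to 34.1 and 29.4 to 33.1), and 0.984% and 0.492% in WT (0.452 to 2.13 and 0.167 to 1.44). The share was thus not constant, and the intervals of the 3 groups were apart. These intervals cover counting error only. By the fit, Rbpj-ps3 in OFF was 18.7-fold below ON (adjusted p = 2.92e-04), and it was higher in ON than in WT by 7.25 ± 0.35 on the log2 scale (adjusted p = 2.44e-05) and in OFF than in WT by 3.03 ± 0.54 (adjusted p = 0.0119). The call between OFF and WT was lost without OFF replicate 2, WT replicate 1 or WT replicate 2 (adjusted p up to 0.0843). Whether these reads came from the pseudogene, the native gene or the induced Rbpj was not tested. Rbpj-ps1 had 1 count in 1 WT library and 0 elsewhere.

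Added together, Rbpj and its pseudogenes came to 31.5 and 34.4 CPM in OFF, 145 and 116 in ON, and 36.5 and 35.5 in WT for Rbpj with Rbpj-ps3. With all copies in 1 row the log2 fold change was -1.98 ± 0.14 for OFF against ON (adjusted p = 6.09e-04), 1.86 ± 0.14 for ON against WT (adjusted p = 9.79e-05) and -0.13 ± 0.14 for OFF against WT (adjusted p = 0.671). The summed row thus put OFF nearer to WT and ON further from both than Rbpj alone did. Rbpjl, a relative of Rbpj known from the pancreas, had 2 to 12 counts per library and was not tested.

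**Figure D1:**
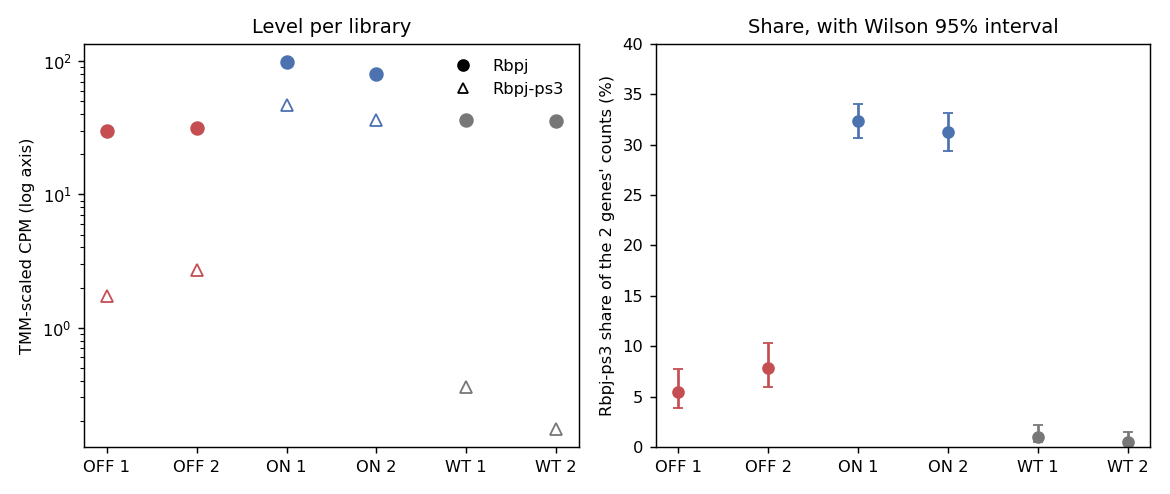
Left, TMM-scaled CPM (log axis) of Rbpj (filled circles) and Rbpj-ps3 (open triangles) in each of the 6 libraries. Right, the share of Rbpj-ps3 among reads assigned to either gene, in percent with Wilson 95% intervals; the ON libraries stand at 32.3% and 31.2%, above all OFF and WT libraries.

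Among the targets, Dtx1 (ENSMUSG00000029603; chr5:120680202-120711927, minus strand) moved with Rbpj. It stood at 195 and 145 CPM in OFF, 492 and 562 in ON, and 198 and 198 in WT. Both ON libraries were above the other 4, and OFF replicate 2 was the lowest of all. Its level in OFF was 3.10-fold below that in ON (-1.63 ± 0.16; adjusted p = 0.00234) and 2.67-fold higher in ON than in WT (1.41 ± 0.15; adjusted p = 6.58e-04). The difference between OFF and WT was -0.22, with a 95% interval from -0.56 to 0.12 (adjusted p = 0.457). Within the ON group the order of the libraries was opposite for the 2 genes, with Rbpj higher in replicate 1 and Dtx1 in replicate 2.

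Nrarp (ENSMUSG00000078202; chr2:25180758-25183339, plus strand), the feedback inhibitor, did not share that pattern. It was low throughout, with 65 and 71 counts in OFF, 112 and 63 in ON, and 32 and 32 in WT, or 3.75 and 4.27, 5.72 and 3.12, and 1.91 and 1.86 CPM. The ON libraries lay on either side of both OFF libraries, and all 4 RBPJind libraries were above WT. No difference was called by edgeR: the log2 fold change was -0.14 for OFF against ON (95% interval -0.86 to 0.59; adjusted p = 0.854), 1.22 ± 0.37 for ON against WT (adjusted p = 0.0534, and 0.0497 by DESeq2) and 1.08 ± 0.38 for OFF against WT (adjusted p = 0.129). The difference of OFF from ON turned to 0.37 without ON replicate 1. The difference of ON from WT was called without ON replicate 2 (adjusted p = 0.00964) or OFF replicate 2 (0.0465), and that of OFF from WT without ON replicate 1 (0.0487) or ON replicate 2 (0.0493). An antisense gene, Gm38287, covers 79.4% of the exon bases of Nrarp and had 1 to 5 counts per library. The strand setting of the counting is not given, so reads of this stretch may have been set aside as ambiguous and Nrarp may be undercounted.

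The promoters of Rbpj and Dtx1 are printed because the counts of these genes moved together. Each is a window of 300 bases around a RefSeq start site (GRCm38.p6), most of it upstream. The Rbpj promoter is that of the native gene, and whether native or induced Rbpj gave the higher counts in ON was not tested. RBPJ is known to bind the core TGGGAA, searched here on both strands as TGGGAA and TTCCCA and put in capitals. The first of 2 listed Rbpj promoters, chr5:53590096-53590395 on the plus strand, held it at 2 places, and the Dtx1 promoter, chr5:120711620-120711919 on the minus strand, at none.
Rbpj promoter: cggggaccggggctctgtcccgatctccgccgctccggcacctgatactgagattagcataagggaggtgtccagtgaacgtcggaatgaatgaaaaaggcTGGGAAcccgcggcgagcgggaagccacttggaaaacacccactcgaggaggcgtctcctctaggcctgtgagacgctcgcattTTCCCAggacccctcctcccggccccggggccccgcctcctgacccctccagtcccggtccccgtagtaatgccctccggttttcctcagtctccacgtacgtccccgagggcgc
Dtx1 promoter: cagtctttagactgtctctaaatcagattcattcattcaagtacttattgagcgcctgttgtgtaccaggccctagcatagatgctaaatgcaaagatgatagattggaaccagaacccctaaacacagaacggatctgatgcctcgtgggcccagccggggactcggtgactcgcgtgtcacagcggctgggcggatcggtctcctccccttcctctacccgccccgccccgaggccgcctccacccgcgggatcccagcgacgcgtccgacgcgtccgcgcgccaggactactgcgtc

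The 8 genes have 11 promoters in that table. The core occurred in 6 of the 11, from 5 genes (Rbpj, Maml2, Maml3, Spen and Ncor1), and in 25.6% of all 32851 promoters. The Rbpj promoters, chr5:53590096-53590395 and chr5:53590236-53590535, overlap. The match at -65 from the start site of the first is the same site as that at -205 of the second, and it was counted in both. The share over all is per promoter and not per gene. The longer form GTGGGAA (reverse TTCCCAC), which contains the core, occurred in 1 of the 11, the promoter of Spen, and in 6.38% of all. Nrarp and Maml1 had no match in these windows. A match is a run of letters and not a measured binding site.

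The coactivator genes Maml1, Maml2 and Maml3, whose proteins bridge the receptor fragment and RBPJ to histone acetyltransferases, had their lowest group means in ON. Maml2 (ENSMUSG00000031925; chr9:13297957-13709388) was at 97.2 and 79.8 CPM in OFF, 56.3 and 63.3 in ON, and 101 and 115 in WT. The 3 groups did not overlap. Maml2 was 1.81-fold lower in ON than in WT (log2 fold change -0.85 ± 0.14; adjusted p = 0.00489), which did not hold without WT replicate 2 (adjusted p = 0.0863). The log2 fold change of OFF against ON was 0.57 ± 0.14 (adjusted p = 0.0834 by edgeR, 0.0256 by DESeq2), and that of OFF against WT was -0.29 (95% interval -0.60 to 0.02).

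Maml1 (ENSMUSG00000050567; chr11:50255634-50292311) was at 72.3 and 70.4 CPM in OFF, 60.4 and 55.6 in ON, and 67.4 and 67.6 in WT. Its groups did not overlap either, but the span was narrow, and no difference was called (OFF against ON 0.30 ± 0.11, adjusted p = 0.199; ON against WT -0.22 ± 0.11, adjusted p = 0.229). Maml3 (ENSMUSG00000061143; chr3:51685907-52105076), the least abundant of the family, was at 21.7 and 12.1 CPM in OFF, 10.7 and 14.6 in ON, and 17.9 and 24.0 in WT. OFF overlapped both other groups, and the OFF libraries differed more from each other than the group means did. For ON against WT its log2 fold change was -0.73 ± 0.28 (adjusted p = 0.114), called without OFF replicate 1 (0.0467) or OFF replicate 2 (0.0359) and with only the 4 libraries of the comparison (0.0482). Its difference of OFF from ON, 0.42, turned to -0.0536 without OFF replicate 1, and that of OFF from WT, -0.31, turned to 0.0456 without OFF replicate 2.

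Of the corepressor genes, Spen (ENSMUSG00000040761; chr4:141467890-141538597), which encodes a large RNA-binding repressor that recruits NCOR complexes, was at 352 and 293 CPM in OFF, 269 and 361 in ON, and 276 and 321 in WT. The 3 groups overlapped, and the ON libraries were the lowest and the highest of the 6. The 95% interval of its log2 fold change was -0.33 to 0.40 for OFF against ON, -0.29 to 0.45 for ON against WT and -0.26 to 0.48 for OFF against WT. Ncor1 (ENSMUSG00000018501; chr11:62316426-62458541), the scaffold of a complex with HDAC3, was at 719 and 642 CPM in OFF, 564 and 578 in ON, and 653 and 689.5 in WT. The ON libraries were below the other 4, and OFF and WT overlapped. The log2 fold change was 0.25 ± 0.12 for OFF against ON (adjusted p = 0.281) and -0.23 ± 0.12 for ON against WT (adjusted p = 0.215). Against WT the value in OFF was 0.02 (95% interval -0.24 to 0.28), with a sign that turned under 7 of 16 alternatives.

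Taking the 8 genes as a set, 2 were called between OFF and ON, Rbpj and Dtx1, both lower in OFF, where 1.03% of all tested genes were called, 0.602% higher and 0.425% lower (95 and 67 genes, but 19 and 39 among protein-coding genes only). Between ON and WT 3 were called, Rbpj and Dtx1 higher and Maml2 lower, where 14.8% of all tested genes were called, 9.68% higher and 5.16% lower (1527 and 815 genes, and 1272 and 1091 with upper quartile scaling). Between OFF and WT none of the 8 was called by edgeR, DESeq2 or limma-voom, with 1 (Nrarp) at an unadjusted p under 0.05, where 6.83% of all tested genes were called, 4.7% higher and 2.14% lower. Groups that did not overlap were found for 5 of the 8 genes in OFF against ON, 7 in ON against WT and 5 in OFF against WT, beside 46.7%, 59.9% and 55.7% of all tested genes. The median log2 fold change of the 8 genes was 0.14, -0.07 and -0.10 in these comparisons, against 0.00, -0.02 and 0.01 over all tested genes. ON libraries enter both OFF against ON and ON against WT, so the opposite signs of those values are not independent of each other. The 8 genes were chosen with earlier results of these data known, so their calls beside the shares over all genes are no independent test.

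**Figure D2:**
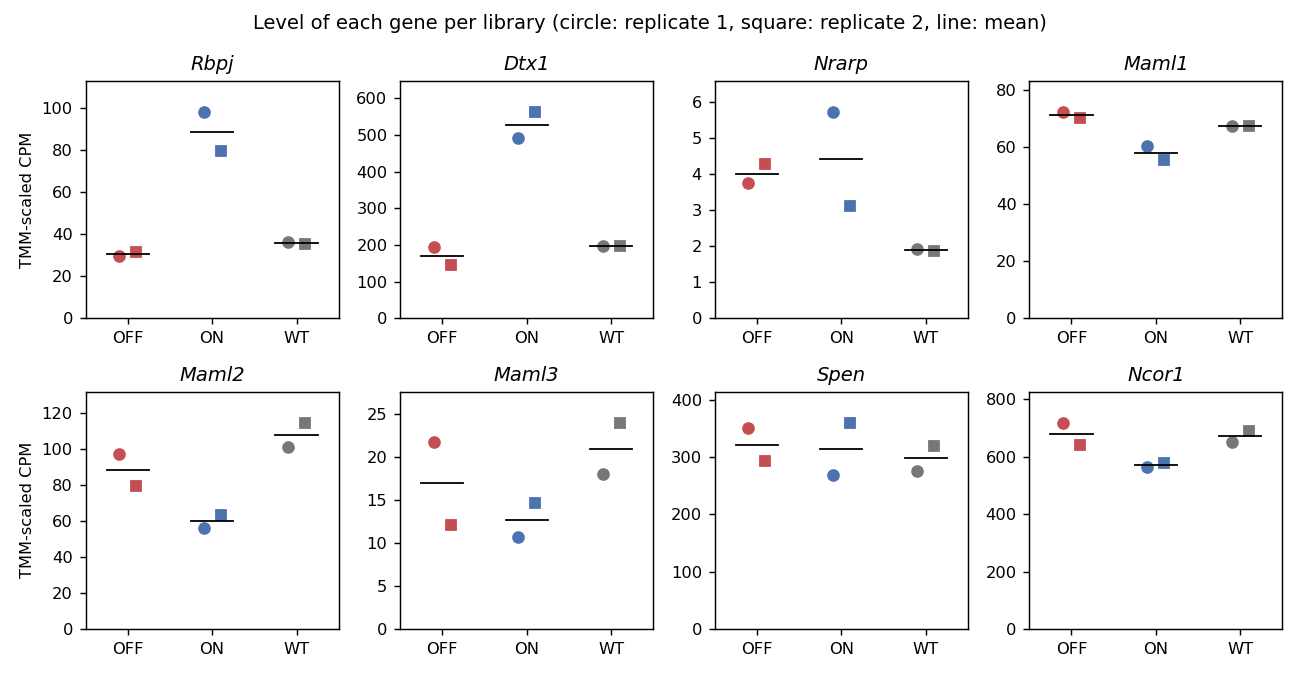
TMM-scaled CPM of the 8 genes in each library of OFF, ON and WT (circle, replicate 1; square, replicate 2; line, group mean), with each axis from 0. Rbpj and Dtx1 are highest in both ON libraries, Maml1, Maml2 and Ncor1 lowest in both, and the Spen libraries of the 3 groups overlap.

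**Figure D3:**
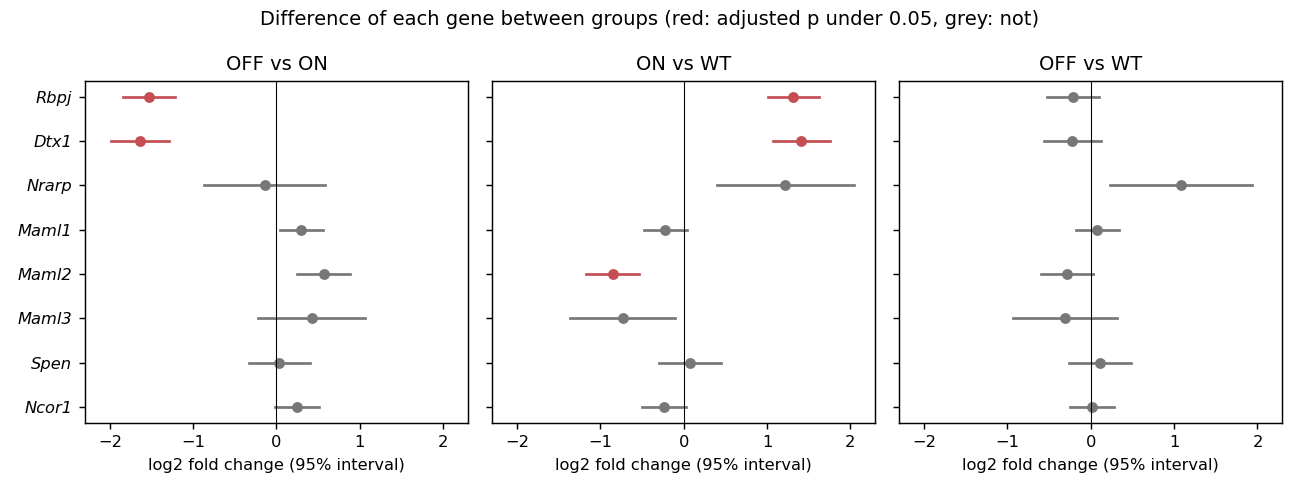
Log2 fold changes of the 8 genes in the 3 comparisons with 95% intervals from the edgeR fit; red marks an adjusted p under 0.05. Rbpj and Dtx1 are at -1.53 and -1.63 for OFF against ON and at 1.32 and 1.41 for ON against WT, and every gene is grey for OFF against WT.

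Levels of different genes can be set side by side only per length, as CPM per kilobase of annotated exon. In OFF, Ncor1 led with 53.1 ± 4.23 (SD, n = 2), followed by Dtx1 (32.2 ± 6.70), Spen (22.9 ± 2.97), Maml2 (13.4 ± 1.86), Maml1 (12.9 ± 0.250), Rbpj (2.41 ± 0.103), Maml3 (1.61 ± 0.650) and Nrarp (1.55 ± 0.140). In ON, Dtx1 led with 99.99 ± 9.50 per kilobase, ahead of Ncor1 (44.6 ± 0.757), Spen (22.3 ± 4.59), Maml1 (10.5 ± 0.615), Maml2 (9.06 ± 0.757), Rbpj (6.97 ± 1.03), Nrarp (1.71 ± 0.713) and Maml3 (1.20 ± 0.262). In WT the order was Ncor1 (52.4 ± 2.04), Dtx1 (37.5 ± 0.0239), Spen (21.2 ± 2.24), Maml2 (16.4 ± 1.46), Maml1 (12.2 ± 0.0194), Rbpj (2.80 ± 0.0463), Maml3 (1.998 ± 0.405) and Nrarp (0.731 ± 0.0146). Dtx1 and Ncor1 changed places between ON and the other groups. Within the SDs, Maml2 and Maml1 could not be ordered in OFF, nor Maml3 and Nrarp in OFF and ON. The SD ranges of Dtx1 and Spen also overlapped in OFF, but Dtx1 was above Spen per kilobase in each OFF library. The exon length of Rbpj, 12750 bases over all annotated transcripts, is above that of a single transcript (5459 bases in Rbpj-201), and its level per kilobase depends on that choice.

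The other coactivators listed include Snw1, Ep300, Crebbp and the Mediator kinase genes Cdk8 and Cdk19. Of 10 tested, none was called between OFF and ON by edgeR, DESeq2 or limma-voom (3 at an unadjusted p under 0.05; median log2 fold change 0.23) and none between OFF and WT by the same tools (0 at an unadjusted p under 0.05). Between ON and WT 1 was called, with a median of -0.25 over the 10. These counts lie near the shares called over all genes (1.03% in OFF against ON, 14.8% in ON against WT and 6.83% in OFF against WT). It was Snw1, whose protein SKIP binds RBPJ with either kind of cofactor, at 148 ± 26.2 CPM in ON and 94.5 ± 0.315 in WT (1.56-fold higher; adjusted p = 0.0147), and 105 ± 1.30 in OFF. That call was lost without WT replicate 1 or WT replicate 2 (adjusted p up to 0.130).

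Of 27 other corepressor genes 26 were tested, and 1 was called in OFF against ON (4 by DESeq2, 0 by limma-voom, 11 at an unadjusted p under 0.05), 7 in ON against WT and 1 in OFF against WT (2 by DESeq2; medians 0.01, -0.07 and 0.03). In ON against WT DESeq2 called 5 higher and 1 lower, and limma-voom 4 higher and 1 lower. Over all tested genes the shares called by edgeR were 1.03%, 14.8% and 6.83%. Tle4, which encodes a Groucho-type corepressor used by HES proteins, was at 84.9 ± 6.75 CPM in OFF, 54.8 ± 3.79 in ON and 103 ± 5.02 in WT. It was 1.55-fold higher in OFF than in ON (adjusted p = 0.0489) and 1.88-fold lower in ON than in WT (adjusted p = 0.00205). The first call was kept under only 3 of 16 alternatives and was lost without any single library except ON replicate 1 (adjusted p up to 0.210); the second was kept under all 16. Cbfa2t3, of the ETO family of corepressors, was at 11.95 ± 0.250 CPM in OFF and 14.7 ± 2.17 in ON, against 1.92 ± 0.497 in WT (6.22-fold and 7.65-fold higher; adjusted p = 6.70e-04 and 1.71e-04), and both calls were kept under all 16 alternatives. Its relative Cbfa2t2 was 1.38-fold lower in ON than in WT (adjusted p = 0.0442), and that call did not hold without any 1 of the 6 libraries (adjusted p up to 0.302).

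Higher in ON than in WT were also Tle3 (1.57-fold), the deacetylase gene Hdac1 (1.49-fold), Sap30 of the SIN3 complex (2.12-fold) and Cir1, which encodes an RBPJ-binding corepressor (1.496-fold). Their adjusted p-values were 0.0152, 0.0100, 0.0348 and 0.0398. All 4 calls were lost without WT replicate 1 or WT replicate 2, that of Sap30 also without ON replicate 1 and that of Cir1 without ON replicate 2 (adjusted p up to 0.298). Rbm15 and Rbm15b, of the protein family of Spen, were not called, with log2 fold changes between -0.08 and 0.12.

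No difference was called for the other members of the Deltex family. Dtx2, Dtx3, Dtx3l and Dtx4 were all tested and none was called in any comparison by edgeR, DESeq2 or limma-voom, with 1 of the 4 at an unadjusted p under 0.05 in OFF against ON, 0 in ON against WT and 1 in OFF against WT. Their log2 fold changes of OFF against ON ran from -0.78 to 0.08. Dtx4 had the lowest, at 3.49 ± 0.777 CPM in OFF, 6.03 ± 0.438 in ON and 6.15 ± 2.12 in WT (adjusted p = 0.212 between OFF and ON).

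Of 22 other genes listed as Notch targets in T cells, 15 were tested. None was called between OFF and ON by edgeR or limma-voom and 1 by DESeq2, where edgeR called 1.03% of all tested genes. At an unadjusted p under 0.05 were 3 of the 15, and the median log2 fold change of the 15 was 0.04. The hairy-related genes Hes1, Hes5, Hey1, Hey2 and Heyl were too low to test, with 3 and 3 counts of Hes1 in OFF, 8 and 3 in ON, and 1 and 5 in WT. Notch1, a receptor gene of the pathway, stood at 345 ± 34.9 CPM in OFF, 344 ± 8.48 in ON and 288 ± 46.8 in WT and was not called. Between ON and WT 6 of the 15 were called higher and 2 lower (median 0.25, and 4 higher and 2 lower by limma-voom). In that comparison 14.8% of all tested genes were called. In OFF against WT 5 of the 15 were called higher and 1 lower (median 0.48, and 2 higher and 1 lower by limma-voom). There 6.83% of all tested genes were called.

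Several of these listed targets were higher in both RBPJind groups. Ccnd1, which encodes cyclin D1, was 4.53-fold higher in OFF (adjusted p = 0.00156) and 5.94-fold higher in ON (3.31e-04) than in WT. Il2ra, which encodes CD25, the marker the sort selected against, was 6.11-fold higher in OFF (1.73e-04) and 5.93-fold higher in ON (6.37e-05), at 27.1 ± 2.51 CPM in OFF and 26.3 ± 1.96 in ON against 4.42 ± 0.328 in WT. Il7r, a receptor gene of naive T cell survival, was 2.07-fold lower in OFF (adjusted p = 0.0101, lost without WT replicate 1, 0.104) and 2.35-fold lower in ON (0.00303) than in WT. Igf1r was 2.68-fold lower in ON than in WT (0.00567), and did not pass without WT replicate 2 (0.0659).

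The effector genes of this list were higher too. Ifng was 7.47-fold higher in OFF (adjusted p = 0.0213, lost without OFF replicate 2, WT replicate 1 or WT replicate 2, up to 0.126) and 15.5-fold higher in ON (0.00223) than in WT. The granzyme gene Gzmb was at 62.3 ± 45.7 CPM in OFF, 152 ± 105 in ON and 1.10 ± 0.481 in WT. Its adjusted p against WT was 0.0490 in OFF and 0.0183 in ON. Both calls were lost without OFF replicate 2, WT replicate 1 or WT replicate 2, and that of OFF also without OFF replicate 1 or ON replicate 2 (up to 0.343 for OFF and 0.176 for ON). Tbx21, which encodes T-bet, was 4.62-fold higher in ON than in WT (0.0246; lost without ON replicate 1, ON replicate 2 or WT replicate 2, up to 0.0704) and Cdkn1a 5.62-fold (0.0477; lost without any 1 library except ON replicate 2, up to 0.264). Gata3 was 1.40-fold higher in OFF than in WT (0.0471; lost without OFF replicate 2, WT replicate 1 or WT replicate 2, up to 0.338).

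**Figure D4:**
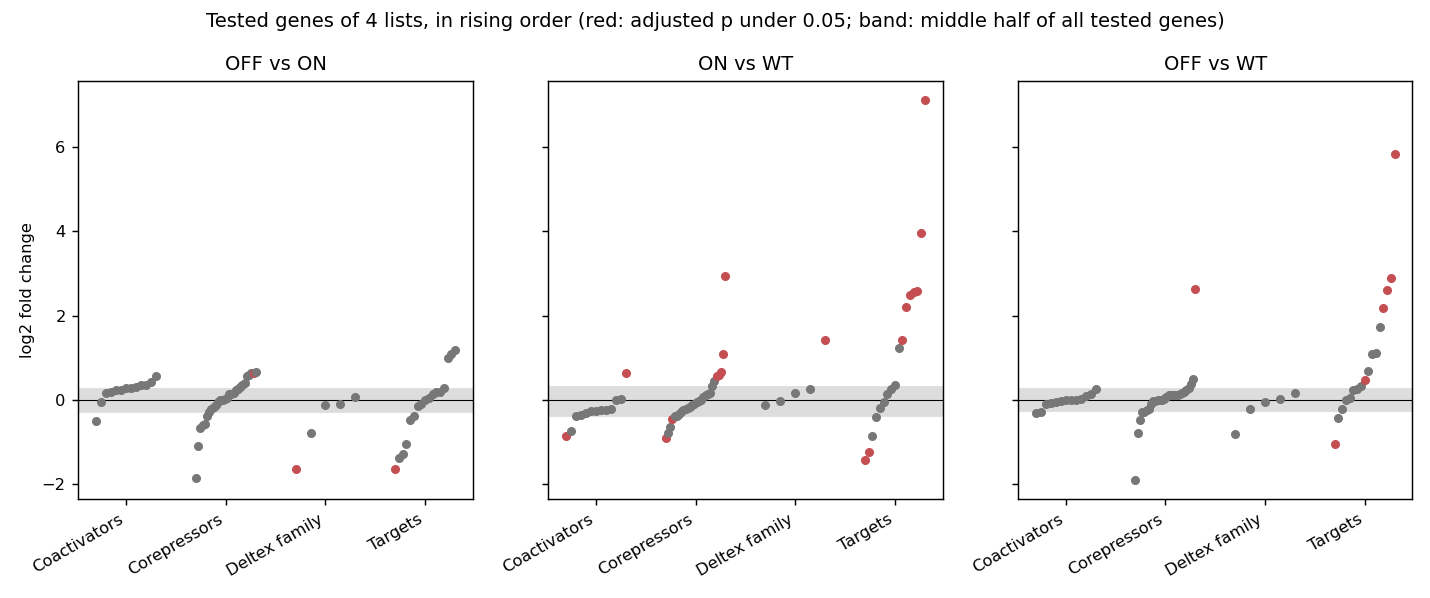
Log2 fold changes of the tested genes of 4 lists (coactivators, corepressors, the Deltex family and Notch targets), each list in rising order. The lists hold the 8 genes except Rbpj, which is in none of them and is not plotted. Red marks an adjusted p under 0.05, and the grey band runs from the lower to the upper quartile of all tested genes. Between OFF and ON the called points are Dtx1 at -1.63, shown in 2 lists, and Tle4 at 0.63.

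Markers of other cells and library measures ran along some of these differences. The summed level of 4 regulatory T cell genes was 189 and 354 CPM at its lowest and highest in OFF, 134 and 209 in ON, and 19.0 and 19.8 in WT, and that of 10 B cell genes 38.3 and 58.6 in OFF, 29.5 and 38.7 in ON, and 9.81 and 11.1 in WT. All 4 and all 10 genes had counts in every library. For 9 myeloid and dendritic genes the lowest and highest sums were 64.5 and 72.1 CPM in OFF, 57.1 and 62.2 in ON, and 17.6 and 20.3 in WT, and for 6 CD8 T and NK genes 16.9 and 26.6 in OFF, 30.4 and 45.6 in ON, and 14.7 and 17.2 in WT. For 6 erythroid and stromal genes they were 201 and 231 CPM in OFF, 159 and 200.4 in ON, and 196.8 and 197 in WT, nearly all from Pecam1. Among the myeloid genes Cd14 was at 0 in 2 libraries, and of the erythroid and stromal genes Klf1 was at 0 in 1 and Col3a1 in 2; Il2ra is also 1 of the 4 regulatory T cell genes. The regulatory T, B cell and myeloid sums were above WT in both RBPJind groups, while Rbpj and Dtx1 were called higher than WT in ON and not in OFF. The CD8 T and NK sums were highest in ON, as Rbpj and Dtx1 were, in ON replicate 1 largely through Gzma, at 26.3 CPM in ON replicate 1 and 5.50 in ON replicate 2 against 1.96 and 5.83 in OFF. Unaligned reads were fewest in ON. Their part in the results was not tested.

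Over the 6 libraries, the expression profile of Rbpj was nearest to those of Epas1, Dtx1, Mafg, Mphosph6 and Zfp120 among 9526 genes with a mean of at least 5 CPM. Likeness was the root mean square distance of log2 CPM after centring each gene, and the distances were 0.18, 0.21, 0.23, 0.24 and 0.28. Epas1, which encodes the oxygen-responsive factor HIF-2 alpha, was at 17.3 CPM in OFF, 54.1 in ON and 21.9 in WT. Dtx1 ranked second of the 9526 for Rbpj and Rbpj second for Dtx1, whose other neighbours were Mphosph6, Epas1, Gm5547 and Rpl37rt. Among the cofactor genes the nearest to Rbpj was Spen, at 0.72 and rank 4922, while Maml1, Maml2, Maml3 and Ncor1 ranked between 6937 and 9000. Nrarp was below the CPM limit, at a distance of 0.66. These distances rest on 3 groups of 2 libraries, so any gene high in ON alone will be near, and they are given as a description.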

How the data were processed

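The authors deposited 1 table of raw counts per gene for 6 libraries of total RNA from sorted spleen CD4 T cells. GRCm38 was the genome and an Illumina NovaSeq the instrument, per the labels' protocols; R 3.6.2 and edgeR stand in the submitters' processing notes. No source used here names the aligner, the counter, whether counting used strand, or the annotation. The 5 summary rows (unaligned, ambiguous reads and others) entered neither library sizes nor tests; genes held 33.7% to 46.9% of a library's reads. With 17025551 to 19319183 counts per library, low genes are imprecise, and replicates differed by more than sampling noise (chi-square per degree of freedom 17.8 in OFF, 65.9 in ON, 9.50 in WT).

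Identifiers were matched to GENCODE M21 (GRCm38): 419 found no match and 47310 did. filterByExpr set which genes were tested (minimum count 10, total 15); counts were scaled by TMM and compared by the robust quasi-likelihood test of edgeR over all 6 libraries, with Benjamini-Hochberg adjustment. SE is the log2 fold change divided by the root of F, and SD is of 2 libraries. Versions were edgeR 4.0.16, DESeq2 1.42.0 and limma 3.58.1 under R 4.3.3. The fits were tested on simulated counts. Alternatives were other scalings, filters, tools, sample sets, a replicate block, pseudogenes summed with Rbpj, and each library left out. The 8 genes and the lists were chosen with earlier results of these data known. Genes named were the 8, the Rbpj relatives, listed genes called in any comparison, Hes1, Notch1 and the 5 nearest profiles of Rbpj and Dtx1; genes that overlap the 8, Dtx4 and the names standing for a whole list or its untested members (Ep300, Hey1 and the like) fall outside this rule and were added after their values were seen. Some genes that the rule covers are not reported here.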

Additional observations from a re-analysis of the deposited data

How the results depend on the processing

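Rbpj and Dtx1 kept direction and call in OFF against ON and in ON against WT under every alternative run. Rbpj ranged from -1.98 to -1.37 and from 1.18 to 1.86 on the log2 scale and Dtx1 from -1.85 to -1.46 and from 1.34 to 1.53, the outer Rbpj values being those with its pseudogenes summed. Called genes of the 8 moved in OFF against ON from 2 to 3 with DESeq2 and with a crossed replicate block, in ON against WT from 3 to between 2 and 5 with 1 library left out and to 5 with a crossed replicate block, and in OFF against WT from 0 to between 0 and 1 with 1 library left out. Below the threshold in every case, Spen turned to -0.09 (OFF against ON, without OFF replicate 1), -0.16 (without ON replicate 1), -0.12 (ON against WT, without ON replicate 2) and -0.02 (without WT replicate 1). With 1 library left out Spen ran from -0.16 to 0.25 (OFF against ON) and -0.12 to 0.30 (ON against WT), Nrarp from -0.53 to 0.37 (OFF against ON), and Maml3 from -0.0536 to 0.76 (OFF against ON) and -0.77 to 0.0456 (OFF against WT). Ncor1 in OFF against WT turned to -8.78e-04 (RLE scaling), -0.0555 (upper quartile), -0.0352 (mean CPM of at least 1), -0.0244 (only 4 libraries), -0.0260 (protein-coding genes) and with 1 library left out ran from -0.0345 to 0.0936. The cause was not tested.

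Counts over all genes, 162 in OFF against ON, 2342 in ON against WT and 1078 in OFF against WT, ran over the alternatives from 58 to 1210, 368 to 3755 and 223 to 2082. The replicate block gave 60, 1441 and 663, with 2, 3 and 0 of the 8 genes called. Samples of the same number did not deviate together (r over genes -0.20 for OFF and ON, 0.08 for ON and WT, -0.21 for OFF and WT), so the numbers do not pair the libraries. A crossed block, OFF numbers swapped and added after seeing the data, gave 1210, 3755 and 2082 calls. The split of calls in OFF against ON, 95 higher and 67 lower, turned to 76 and 81 at a mean CPM of at least 1, 19 and 39 among protein-coding genes, 249 and 370 without ON replicate 1, 70 and 117 without ON replicate 2, and 578 and 632 with the crossed block. Low counts limit Nrarp, Rbpj-ps3 in WT and the untested Hes and Hey genes, among others.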
